A study of Drosophila melanogaster with 11 samples.

Results

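The positions of RNA hydroxymethylcytosine peaks within genes were described in 2 edited lines of Drosophila S2 cells, a cultured line of hemocyte (blood cell) origin. The peaks come from hMeRIP-seq, in which RNA bound by an antibody to hydroxymethylcytosine is sequenced. A peak was taken when it lay on an assembled chromosome arm and touched an exon listed in the RNA-seq files by at least 1 bp. This gave 542 of 964 peaks in the dTet CRISPR list and 384 of 1018 in the yellow CRISPR list, 926 of 1982 in all.

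The study mapped RNA hydroxymethylation and transcript levels in S2 cells in 11 samples, of which 4 are used here. The dTet CRISPR sample is total RNA of S2 cells edited at dTet, the fly Tet dioxygenase gene, and its title calls it a depletion. The yellow CRISPR sample is total RNA of S2 cells edited at yellow, a cuticle pigmentation gene. Both pull-downs used a rat monoclonal antibody from Diagenode, in cells grown in serum-free medium with no treatment named. The labels do not say whether a line is a clone or a pool, where the cut lies, or how much Tet protein remains. Exons and their RNA level come from 2 polyA RNA-seq control libraries of S2 cells that were not edited by CRISPR. Their labels call them dTet Ctrl, the counterpart of dTet KD (knockdown) libraries that are not used here. Each line has 1 hMeRIP sample, so every difference between the lines below is a difference between 2 peak lists, without a replicate check and without a test.

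Tet enzymes oxidise methylcytosine to hydroxymethylcytosine, in DNA and also in RNA. An antibody pull-down of fragmented RNA gives peaks whose edges depend on fragment length and read depth, so a peak marks a stretch of transcript and not a base. Long and highly expressed exons supply more fragments, so the positions are given beside the exonic bases and the RNA-seq coverage of the same genes.

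The exon files give no strand. First and last exon therefore mean first and last in genome order, and terminal means either. Overlapping exons of a gene were merged into 1 exon. The host gene of a peak is the gene with which it shares the most exonic bases, and the host exon is the exon of that gene with the largest overlap. RNA level is called signal, the mean read value over 40-bp bins of an exon, where 1 read in a bin is worth 0.340 in control 1 and 0.390 in control 2. A gene counted as detected when its signal averaged at least 1 over the controls, as in 6052 of 16289 genes. The controls differ along genes: internal exons took 34.4% of the coverage in control 1 and 39.4% in control 2. Hemocyte markers were present at a summed signal of 239.1 in control 1 and 230.4 in control 2. Of these 10 markers 9 were detected, although NimC1 had 0.291 and 0.121. The highest were Cg25C, vkg and Fer1HCH, with 78.1, 71.3 and 54.6 in control 1. Sr-CI, Pxn and eater were low, with 1.53, 2.42 and 3.29 there. None of the markers of neuron, muscle, germline, fat body or gut carried a peak, and of those only elav and aub were detected.

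The 542 dTet CRISPR peaks lay in 463 host genes and 530 host exons, and the 384 yellow CRISPR peaks in 339 host genes and 372 host exons. Exonic peaks were 91.7% of the 591 arm peaks in dTet CRISPR (95% Wilson interval 89.2 to 93.7) and 80.2% of the 479 in yellow CRISPR (76.4 to 83.5). At the edge of the rule, the smallest exonic overlap was 50 bp in the dTet list, at CG14434, and 4 bp in the yellow list, at ct. The nearest peaks left out lay 46 bp from an exon in the dTet list and 40 bp in the yellow list. Host genes below detection held 28 of the dTet peaks and 17 of the yellow peaks.

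Most exonic peaks of both lines lay in internal exons. Internal exons hosted 304 dTet CRISPR peaks, 56.1% (51.9 to 60.2), and 207 yellow CRISPR peaks, 53.9% (48.9 to 58.8), while internal exons held 47.7% of the exonic bases and 36.9% of the control coverage of detected genes. First exons hosted 108 dTet peaks (19.9%) and 81 yellow peaks (21.1%), with 23.5% of the bases and 29.3% of the coverage. Last exons hosted 108 dTet peaks (19.9%) and 78 yellow peaks (20.3%), with 23.1% of the bases and 28.4% of the coverage. Genes of a single exon hosted 22 dTet peaks (4.06%) and 18 yellow peaks (4.69%), with 5.69% of the bases. Without merging overlapping exons, the single-exon shares were 2.58% for dTet and 2.08% for yellow. By number, internal exons were 62.1% of the exons of detected genes, above their share of peaks, and first and last exons 17.6% each, below theirs. First and last exons thus hosted like shares of the peaks in both lists, below their share of coverage and above their share of exon number.

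**Figure D1:**
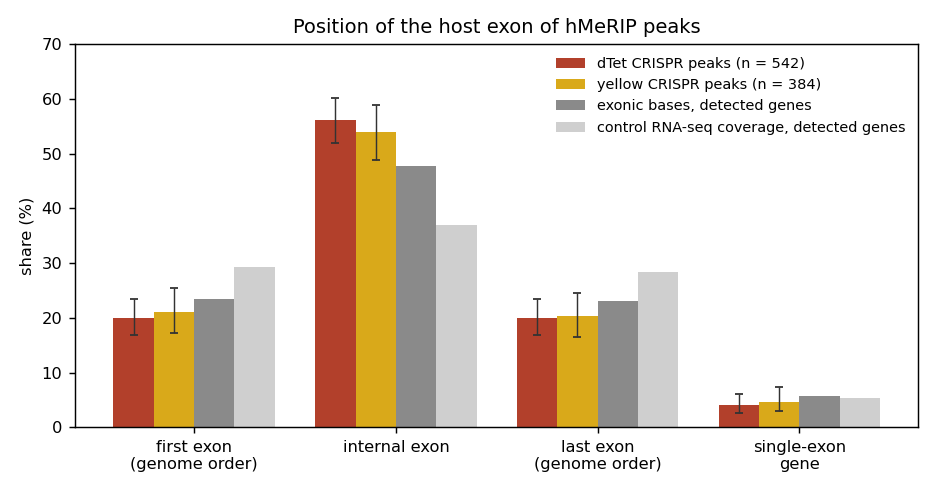
Share of exonic hMeRIP peaks (%, y axis) whose host exon is the first, an internal or the last exon in genome order, or the exon of a single-exon gene (x axis), with 95% Wilson intervals. Grey bars give the share of exonic bases and of control RNA-seq coverage of detected genes. Internal exons hold 56.1% of dTet CRISPR and 53.9% of yellow CRISPR peaks, above their 47.7% of bases and 36.9% of coverage.

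The same held within the genes that carry the peaks. Among peaks in genes of several exons, 216 of 520 dTet CRISPR peaks (41.5%, 37.4 to 45.8) and 159 of 366 yellow CRISPR peaks (43.4%, 38.5 to 48.6) lay in a terminal exon. Terminal exons of those genes held, on average per peak, 49.96% of the bases and 55.4% of the coverage for the dTet list and 49.5% and 55.6% for the yellow list. In genes of 11 or more exons, 24 of 143 dTet peaks (16.8%, 11.5 to 23.8) were terminal, with 29.7% of the bases and 38.5% of the coverage there, and 23 of 97 yellow peaks (23.7%, 16.4 to 33.1), with 30.1% and 41.1%. In genes of 4 to 6 exons, 68 of 145 dTet peaks (46.9%, 39.0 to 55.0) were terminal, with 53.7% of the bases, and 48 of 113 yellow peaks (42.5%, 33.8 to 51.7), with 54.0%. In genes of 7 to 10 exons, 33.3% of dTet peaks were terminal, with 42.2% of the bases, and 40.2% of yellow peaks, with 40.9%. The share of terminal peaks thus lay below that of bases in each class for both lists, by amounts that varied between the classes. In genes of 2 or 3 exons the shares were 80 of 100 dTet peaks and 51 of 64 yellow peaks (79.7%), close to the 83.6% and 83.4% of bases there.

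Peak centres were scarce near the ends of a gene's exonic length, whichever end. A centre here is that of the part of the peak inside its host exon. A peak that ran past a gene end was thus placed inward of its own midpoint. The outermost 10% at either end together make up 20% of the exonic bases. They held 28 of 520 dTet CRISPR centres (5.38%, 3.75 to 7.67) and 30 of 366 yellow CRISPR centres (8.20%, 5.80 to 11.5). Control coverage of the same genes in that zone was 19.1% for the dTet list and 19.6% for the yellow list. For this the signal of each exon was spread evenly over the exon. A fall in coverage toward a gene end within an exon could therefore not appear in these values. Toward the middle the shares reached 27.7% of dTet centres and 24.9% of yellow centres at 30 to 40% of the length. In genes with 10000 or more exonic bp, a limit chosen after seeing the data, the outer zone held 10 of 85 dTet centres (11.8%, 6.52 to 20.3) and 11 of 70 yellow centres (15.7%, 9.01 to 26.0), and both intervals reach 20%. Peaks of about the width of a small gene have their centres away from its ends. The part of peak width, or of cutting peaks to the host exon, in the lower share over all genes was not tested.

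**Figure D2:**
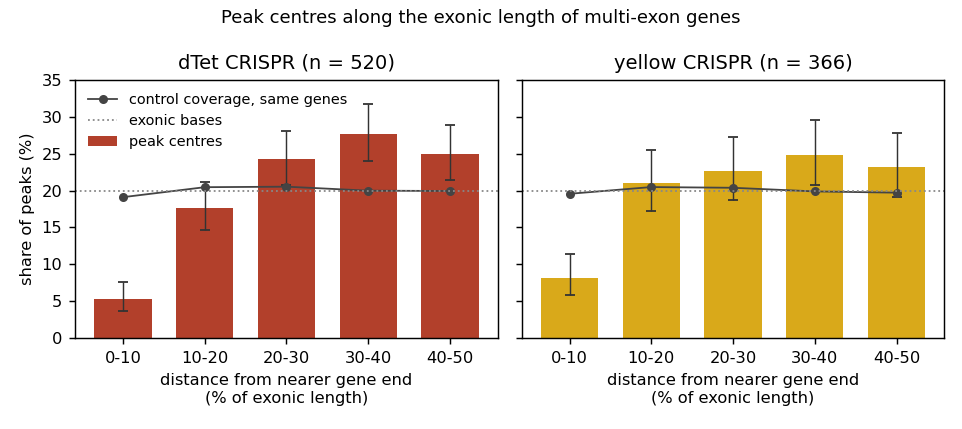
Share of peak centres (%, y axis, 95% Wilson intervals) by distance from the nearer end of the gene's exonic length (% of that length, x axis), for multi-exon genes. Centres are those of the part of each peak inside its host exon. Every class holds 20% of the bases (dotted line). The black line is control coverage of the same genes, with the signal of each exon spread evenly over it. The outermost class holds 5.38% of dTet CRISPR and 8.20% of yellow CRISPR centres.

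Host exons were long. Their median length was 1329 bp in the dTet CRISPR list and 1365 bp in the yellow CRISPR list, while the other exons of the same genes had medians of 249 and 255 bp. Internal host exons had medians of 1039 bp in the dTet list and 1079 bp in the yellow list, against 214 and 222 bp for the other internal exons. The longest exon of its gene hosted 271 of 520 dTet peaks (52.1%, 47.8 to 56.4) and 195 of 366 yellow peaks (53.3%, 48.2 to 58.3). That exon held 48.8% of the bases and 55.9% of the coverage for the dTet list, and 49.3% and 56.1% for the yellow list, so the longest exon carried about as many peaks as its length and coverage. Host genes were large as well, with a median exonic length of 4410 bp in the dTet list and 4686 bp in the yellow list, against 2004 bp over detected genes, and a median of 6 exons in both lists, against 4.

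The choice of the exon with the largest overlap favours long exons, so peak midpoints were also counted per megabase (Mb) of exon. In detected genes 485 dTet CRISPR and 349 yellow CRISPR midpoints fell in an exon of the host gene, 29.2 and 21.0 per Mb. Internal exons held 34.9 dTet midpoints per Mb (Poisson 95% interval 30.9 to 39.3) and 23.6 yellow midpoints (20.3 to 27.2), and terminal exons 24.4 (21.0 to 28.1) and 19.0 (16.0 to 22.3). The density was low in short exons even per base: in internal exons under 200 bp it was 8.95 per Mb for dTet and 5.97 for yellow. In internal exons of 1000 to under 2000 bp it was 48.7 (38.7 to 60.4) for dTet and 33.3 (25.1 to 43.2) for yellow, and in terminal exons of that length 25.8 (19.6 to 33.3) and 16.2 (11.4 to 22.3). At 2000 bp or more the internal and terminal densities were closer, at 45.3 and 39.5 for dTet and 33.6 and 33.7 for yellow, with overlapping intervals.

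Density followed the RNA level of the exon. Internal exons with a control signal of 1 to under 2 held 11.3 dTet CRISPR and 9.24 yellow CRISPR midpoints per Mb, and those with a signal of 20 or more held 202.1 and 123.5. Terminal exons over the same span went up to 111.9 for dTet and 98.2 for yellow, with 7.55 and 4.80 at the low end. Between a signal of 10 and 20 the densities stood farthest apart: internal exons held 160.8 dTet midpoints per Mb (124.4 to 204.6), and terminal exons 57.9 (42.1 to 77.8). The yellow values in the same bin were 107.2 (77.9 to 143.9) and 44.8 (31.0 to 62.6). Internal exons thus held more midpoints per base in each bin of signal 1 or more in both lists, although the intervals overlapped in the lowest and the highest of these bins in both lists and, for yellow, also between 5 and 10. Whether polyA coverage stands for the total RNA that was pulled down was not tested.

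**Figure D3:**
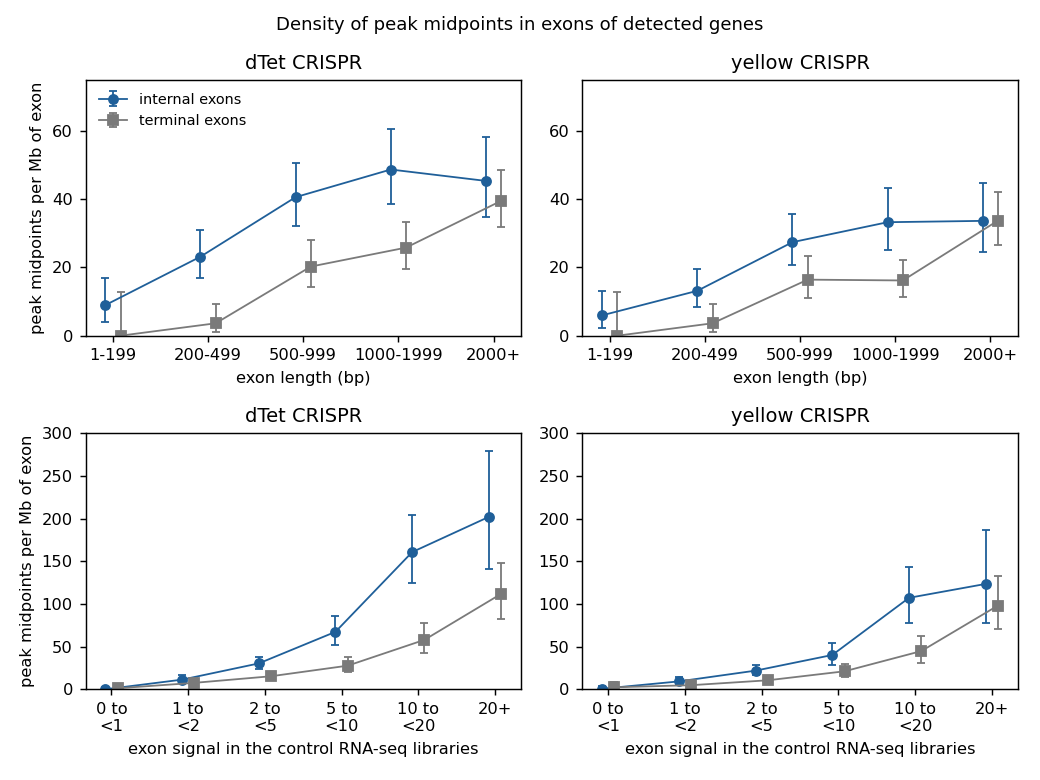
Peak midpoints per Mb of exon (y axis, Poisson 95% intervals) by exon length in bp (top) and by exon signal in the control RNA-seq libraries (bottom), dTet CRISPR left and yellow CRISPR right. Circles are internal and squares terminal exons of detected genes. Density climbs with signal in both lists, to 202.1 for dTet and 123.5 for yellow in internal exons of signal 20 or more.

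Within its gene the host exon had more RNA-seq signal than the rest. The median log2 difference, on log2(signal + 1), was 0.46 over 508 dTet CRISPR host exons and 0.52 over 355 yellow CRISPR host exons, and the host exon was the higher in 374 (73.6%) and 266 (74.9%). Over all exons of detected genes the same difference had a median of -0.45. Split by position, it was 0.21 for internal host exons of either list, with -0.53 over all internal exons, and 0.96 for dTet and 1.09 for yellow in terminal host exons, with -0.14 over all terminal exons. For internal host exons the control libraries differed: 0.09 in control 1 and 0.29 in control 2 for dTet, and 0.08 and 0.32 for yellow. These comparisons were not matched on length. Host exons had medians of 1329 bp (dTet) and 1365 bp (yellow), against 300 bp over all exons of detected genes. The part of exon length in the signal differences was not tested.

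A share of detected genes carried peaks: 471 in the dTet CRISPR list (7.78%), 340 in the yellow CRISPR list (5.62%) and 283 in both (4.68%). In counts of peaks per gene, a peak counted for each gene whose exons it touched and not for its host gene alone. Exons of several genes were touched by 34 dTet and 19 yellow peaks. At the level of exons, 502 of 29799 exons of detected genes were host exons in the dTet list (1.68%) and 355 in the yellow list (1.19%). Most genes had a single peak. In the dTet list 434 genes had 1 exonic peak, 58 had 2, 6 had 3, 2 had 4 and 1 had 6. In the yellow list 317 genes had 1, 39 had 2 and 4 had 3. Of the detected genes, 63 (1.04%) had several dTet peaks and 43 (0.711%) several yellow peaks. Where a host gene had several peaks, these lay all in different exons in 55 of 65 genes for dTet and in 29 of 41 for yellow, and all in the same exon in 8 and 12. The median gap between neighbouring peaks of a gene was 1423 bp in the dTet list and 1596 bp in the yellow list. Of the 294 genes with exonic peaks in both lists, 243 had the same number in each, 31 had more in dTet CRISPR and 20 more in yellow CRISPR.

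The gene with the most exonic peaks was msn (arm 3L, dm3 positions 2554846 to 2586539), a Ste20-family kinase of the JNK pathway. It had 6 dTet CRISPR peaks, hosted by exons 7, 8, 9, 10, 11 and 14 of 20, and no yellow CRISPR peak. All of its dTet peaks had internal host exons, of 142 to 912 bp, but also reached outside exons. In exon order, 75.2, 21.8, 77.9, 32.5, 53.6 and 73.4% of each peak lay in exons, against a median of 91.2% over the dTet list. Its gene signal was 14.4 in control 1 and 20.3 in control 2, and its first exon, with 26.1 and 28.2, had no peak. The JNK pathway gene was thus the extreme case of peaks in the dTet list alone.

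Chromatin regulators with long internal exons came next. kis, a chromodomain helicase, had 4 dTet CRISPR peaks and 2 yellow CRISPR peaks. Its exon 18 of 20 (arm 2L, 234236 to 242142, 7907 bp, signal 10.8 in both controls) hosted 3 of the 4 dTet peaks and 1 of the 2 yellow peaks, and the other yellow peak was hosted by exon 19. The last exon, of 67 bp, had none. nej, the fly CBP acetyltransferase, had 4 dTet peaks in exons 1, 2, 10 and 13 of 16 and 3 yellow peaks in exons 10, 12 and 13. Its first exon is the longest, 5162 bp at a signal of 8.88 and 6.13, and carried a dTet peak and no yellow peak. fs(1)h, a BET bromodomain protein, had 3 peaks in each list, in exons 3, 9 and 10 of 16 for dTet and exons 3, 6 and 9 for yellow. The host exons of these genes were internal in all cases but the first exon of nej.

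Outside chromatin the genes with 3 peaks in a list varied in position. shep, an RNA-binding protein, had 3 dTet CRISPR peaks and 2 yellow CRISPR peaks, all in its first exon of 18, which is 5781 bp long. mask, an ankyrin-repeat and KH-domain protein, had 3 peaks in each list, in exons 6, 12 and 17 of 19 for dTet CRISPR and 5, 12 and 17 for yellow CRISPR. nocte, a gene known for temperature entrainment of the clock, had 3 dTet peaks in exons 1, 3 and 3 of 7, one of them 4553 bp wide, and 2 yellow peaks in exons 1 and 5. rudhira, a WD40-repeat gene, had 2 dTet peaks in exons 3 and 9 of 10, and 3 yellow peaks in exons 3, 9 and 10. In mask the yellow peak in exon 5 overlaps the dTet peak assigned to exon 6, so a different host exon need not mean a different place.

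**Figure D4:**
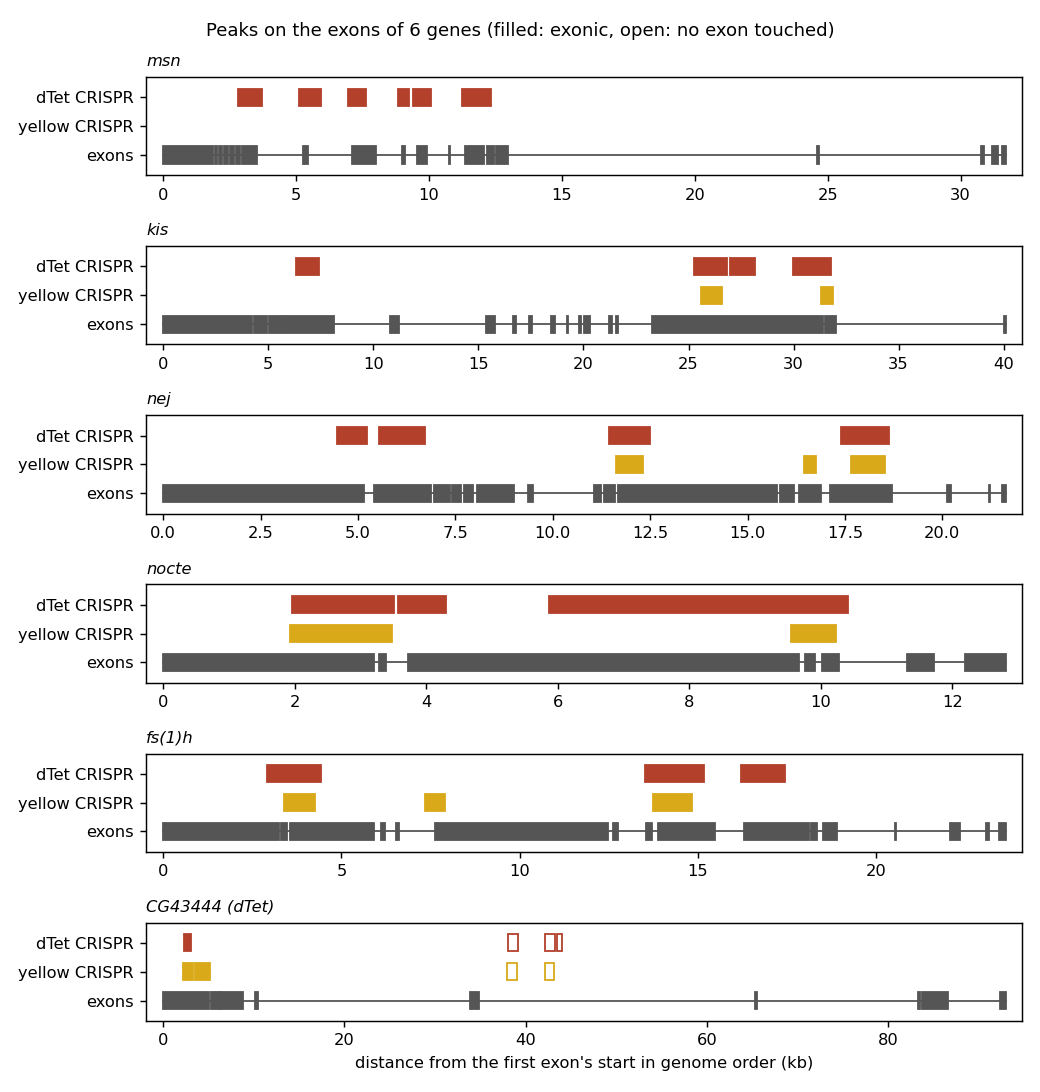
Exons (grey) and peaks of dTet CRISPR (red, top row) and yellow CRISPR (gold, middle row) in msn, kis, nej, nocte, fs(1)h and CG43444, by distance from the start of the first exon in genome order (kb, x axis). Filled boxes touch an exon and open boxes do not. msn has 6 dTet peaks and no yellow peak, and CG43444 has its exonic peaks in the first exon in both lists.

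Exonic peaks in 1 list only were found in 207 genes for dTet CRISPR and in 66 for yellow CRISPR. The lists differ in size, with 542 and 384 exonic peaks. Of all 6052 detected genes, 7.78% had a dTet peak, 5.62% a yellow peak and 4.68% both. Genes with the largest excess of peaks are named here. Syp, an hnRNP-type RNA-binding protein, had 3 dTet CRISPR peaks, in exons 15, 17 and 19 of 19, and no exonic yellow CRISPR peak. Of these peaks, 42.3, 35.3 and 69.5% lay in exons. Socs36E, a suppressor of cytokine signalling, had 2 in the internal exons 2 and 3 of 4, and larp, a La-related protein, had 2 in exons 2 and 9 of 11, also with none in the yellow list. Pif1A had 3 dTet peaks, with 76.1, 47.9 and 51.7% of the peak in exons, and no yellow peak. Its gene signal of 0.493 and 0.557 was below detection in these controls. In the other direction Hex-A, a hexokinase, had 2 yellow peaks of 619 and 626 bp in its single exon of 4139 bp, and no dTet peak. CG32767 had 2 yellow peaks in exons 2 and 4 of 6 and no dTet peak. pAbp, the poly(A)-binding protein, and Act5C, a cytoplasmic actin, had 1 yellow peak each in the last exon and none in dTet, at gene signals of 123.5 and 112.6 for pAbp and 95.6 and 87.6 for Act5C.

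The edited loci were read in the same way. CG43444, the gene called dTet, had 1 exonic dTet CRISPR peak of 783 bp and 2 exonic yellow CRISPR peaks of 1099 and 1609 bp. All 3 lay in its first exon of 11 in genome order, 5071 bp long with a signal of 13.5 in control 1 and 16.0 in control 2. RNA from the locus was therefore pulled down and called in the dTet line too. A peak there does not check the edit, because the position of the edit is not given. The gene y had no peak in either list and a signal of 0.503 and 1.08.

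Both type IV collagen genes carried the widest peaks. Cg25C, the alpha 1 chain, had 1 dTet CRISPR peak of 5388 bp that touched 6 of its 9 exons, and 2 yellow CRISPR peaks of 2854 and 2180 bp that touched 3 each. vkg, the alpha 2 chain, had 1 dTet peak of 5111 bp over 4 exons of 10, and 2 yellow peaks of 896 and 2835 bp. Their gene signals were 78.1 and 77.1 for Cg25C and 71.3 and 65.5 for vkg. In both genes a stretch called as 1 peak in dTet CRISPR was called as 2 in yellow CRISPR. In all, 9 dTet peaks spanned 2 yellow peaks each, sty and CG4038 among them, and 0 yellow peaks spanned 2 dTet peaks. A lower peak number in the dTet list therefore does not mean less of the gene covered.

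Among exons that hosted a peak in both lists, those with the highest signal in each position class belonged to varied genes. In the first exon, sty, the Ras pathway inhibitor Sprouty, had 1 dTet CRISPR peak of 2584 bp and 2 yellow CRISPR peaks of 605 and 726 bp, at an exon signal of 86.5 and 70.6. Moe, the actin-membrane linker moesin, had 1 peak in each list, of 2087 bp in dTet and 1372 bp in yellow. Rm62, a DEAD-box RNA helicase, had 2 peaks in each list, in the first exon and in exon 5 of 9. In the last exon, Hsp83, the fly Hsp90, had 1 dTet peak of 2671 bp and 1 yellow peak of 777 bp. The last exon of HmgD, an HMG-box chromosomal protein, and that of the noncoding RNA CR42862 hosted 1 peak in each list, as did the first exon of Swip-1, an actin-binding gene, and internal exon 3 of Hrb87F, an hnRNP. In single-exon genes, CG15784 had peaks of 915 bp in dTet and 487 bp in yellow, and the noncoding RNA CR45018 of 1231 and 1075 bp. Hsp27, a small heat shock protein, had 1345 bp in dTet and 767 bp in yellow. The dTet peak was the wider in each of these same-exon pairs.

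The longest host exons showed peaks confined to short stretches. CR43334, a noncoding RNA in a single exon of 15466 bp, had 1 peak in each list, of 903 bp in dTet CRISPR and 851 bp in yellow CRISPR, and these overlapped. spen, an RNA-recognition protein, had 1 dTet peak and 2 yellow peaks in its exon 8 of 14, of 12094 bp. Imp, the IGF2 mRNA-binding protein, had 2 peaks in each list in its first exon of 9569 bp (arm X), of 1004 and 738 bp in dTet and of 685 and 697 bp in yellow. chinmo, a BTB zinc-finger gene, had 1 peak in each list in its last exon of 9034 bp. At the other extreme, exon 2 of ct, a homeobox gene, was 54 bp, and 3.10% of the dTet peak and 0.582% of the yellow peak there lay in exons. ct also had 1 peak in each list in its exon 5 of 1200 bp. CG14434 had 1 exonic dTet peak, with 6.99% of it in an exon of 80 bp, and no exonic yellow peak. A yellow peak of 638 bp overlapped that dTet peak but lay 40 bp from the exon. Both lists also had peaks in CG14434 that touched no exon. The microRNA mir-2493, of 106 bp, had 1 yellow peak and no dTet peak. In Su(var)205, the heterochromatin protein HP1a, peaks of 721 bp in dTet and 419 bp in yellow touched 3 exons each, with host exons of 132 and 117 bp. Each of these peaks on a short host exon was wider than the exon.

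In most genes of both lists the host exon was common. Of the host exons, 270 were shared, 50.9% of the 530 in dTet CRISPR (46.7 to 55.2) and 72.6% of the 372 in yellow CRISPR (67.8 to 76.9). Host genes were shared in 274 cases, 59.2% of the dTet list and 80.8% of the yellow list. By position, shared host exons were 55.4% of first, 51.5% of internal and 45.4% of last host exons in the dTet list, and 74.7%, 75.5% and 64.5% in the yellow list. Only 16 of the 274 shared genes had no host exon in common. Among these, 14-3-3epsilon, Df31 and CG4038 had overlapping peaks assigned to different exons. In ena, an actin regulator, the dTet peak was in exon 8 and the yellow peak in exon 12 of 12, and in Smr, a corepressor, the dTet peaks were in exons 1 and 8 and the yellow peak in exon 4 of 12.

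Peaks met by an exonic peak of the other list and peaks not met were also placed by position, a split added after seeing the data. Of yellow CRISPR peaks not met by an exonic dTet CRISPR peak, 45 of 78 lay in terminal exons (57.7%, 46.6 to 68.0), against 39.6% of those met (34.1 to 45.3). In the dTet list the shares were 43.8% (37.6 to 50.1) and 39.6% (34.1 to 45.5). The yellow peaks not met were narrower, with a median of 464.5 bp against 598.5 bp. The difference between the lists in this split was not tested.

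Peaks were wider in the dTet list and crossed exon edges more often. The median width was 988 bp in dTet CRISPR (quartiles 803.2 and 1225) and 565.5 bp in yellow CRISPR (439.8 and 748.5). Peaks wholly within exons of the host gene were 173 of 542 in dTet (31.9%, 28.1 to 36.0) and 215 of 384 in yellow (56.0%, 51.0 to 60.9), and each of these lay inside 1 exon. Peaks touching several exons were 200 in dTet (36.9%, 32.9 to 41.0) and 66 in yellow (17.2%, 13.7 to 21.3). An entire host exon was covered by 123 dTet peaks (22.7%) and 32 yellow peaks (8.33%). Beside Cg25C, a dTet peak touched 6 exons in aru and 5 each in yata and Adam, where aru had a yellow peak over 2 exons and yata and Adam had none. In Bruce, an inhibitor-of-apoptosis family gene, and Dap160, the fly intersectin, the peaks of both lists touched 4 exons. When each peak was cut to its central 200 bp, an alternative added after seeing the data, 85.5% of dTet peaks (82.3 to 88.3) and 85.0% of yellow peaks (81.0 to 88.2) lay wholly within exons. The difference between the lines in staying within exons was thus present for whole peaks and not for their centres.

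Pairs of overlapping peaks gave the same picture at the same places. In 282 pairs where 1 dTet CRISPR peak met 1 yellow CRISPR peak, the dTet peak was wider in 277 and the yellow peak in 5. The medians were 1063 bp in dTet and 591.5 bp in yellow, and the median ratio of dTet over yellow was 1.65 (quartiles 1.37 and 2.21). The dTet peak contained the yellow one in 247 pairs, and the reverse held in 3. The midpoints lay a median of 81.5 bp apart, and the host exon was the same in 266 pairs. In 64 pairs the yellow peak alone lay wholly within exons, in 89 both did, and in 0 the dTet peak alone did. Peak calling depends on the depth of each library, which the peak lists do not hold, so width and depth cannot be told apart between the lines.

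**Figure D5:**
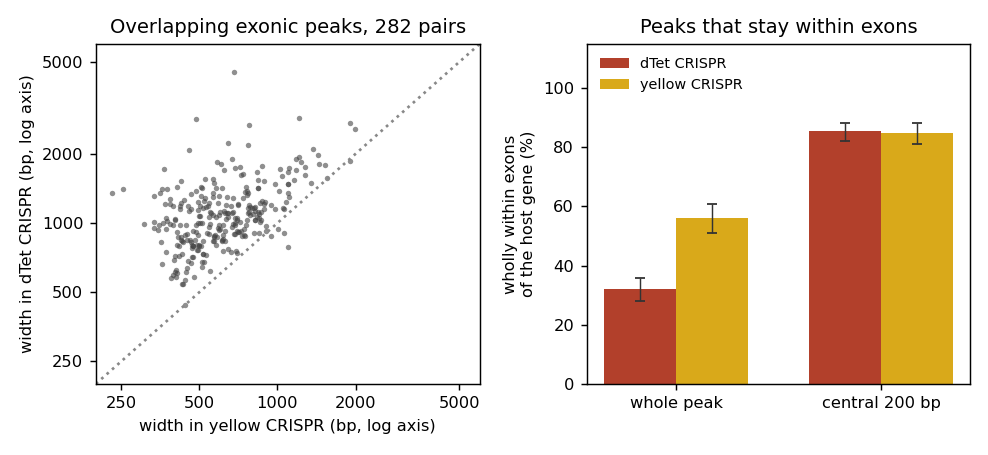
Left, width (bp, log axes) of dTet CRISPR against yellow CRISPR peaks in 282 overlapping pairs, with the line of equal width. Right, share (%) of peaks wholly within exons of the host gene for whole peaks and for their central 200 bp, with 95% Wilson intervals. The dTet peak is wider in 277 pairs. Whole peaks give 31.9% for dTet and 56.0% for yellow, and the centres 85.5% for dTet and 85.0% for yellow.

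Peaks were unevenly spread over the arms. The X chromosome held 148 dTet CRISPR peaks (27.3%, 23.7 to 31.2) and 123 yellow CRISPR peaks (32.0%, 27.6 to 36.9), with 19.9% of the exonic bases and 18.4% of the coverage of detected genes. Of 1043 detected X genes, 11.6% had a dTet peak and 9.97% a yellow peak. Arm 2R held 12.5% of dTet peaks and 11.7% of yellow peaks on 18.9% of the bases, and 4.69% and 3.32% of its 1236 detected genes had a peak. X genes had a median exonic length of 2333 bp and a median signal of 2.93, and 2R genes 1898 bp and 2.91. Chromosome 4 had 0 dTet peaks and 1 yellow peak, in gw, over 56 detected genes.

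Among gene groups, listed with earlier results of these data known, the shares with a peak ran above and below the 7.78% and 5.62% of all detected genes. Of 19 chromatin coactivators and remodelers, 9 had a dTet CRISPR peak, 7 a yellow CRISPR peak and 7 both, with brm and Mi-2, ATPases of remodelling complexes, beside nej, kis and fs(1)h. Of 20 mRNA-binding regulators, 9 had a dTet peak, 6 a yellow peak and 4 both. Imp, mask, pum and shep had a peak in both lists. The median exonic length was 7776 bp in the chromatin group and 8003.5 bp in the mRNA-binding group, against 2004 bp over detected genes, and its part in these counts was not tested.

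In the JNK and Ras group 5 of 14 genes had a dTet CRISPR peak and 3 a yellow CRISPR peak, and in the cytoskeleton group 5 and 4 of 15. Of 7 detected basement membrane genes, 3 had a dTet peak (Cg25C, vkg and LanB1) and 2 a yellow peak. Of 28 translation factors, 5 had a dTet peak and 3 a yellow peak. Ribosomal protein genes, which are short and highly expressed, stood at the low end. Of 83 detected, 4 had a dTet peak (RpL22, RpL5, RpS14b and RpS3) and 1 a yellow peak (RpL5), and 79 had no peak in either list. The median exonic length of these 83 genes was 903 bp. Over all 91 listed ribosomal protein genes, undetected ones included, the median signal was 54.9. Of 11 detected heat shock and chaperone genes, 6 had a dTet peak and 3 a yellow peak, and several of them differ between the control libraries, such as Hsp27 with 33.6 in control 1 and 8.57 in control 2. Hsp70Aa and Hsp70Ab, with a control signal of 0.0212 each, had 2 dTet peaks and 1 yellow peak each, which are uncertain because these copies are near-identical in sequence.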

How the data were processed

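hMeRIP-seq of 1 dTet CRISPR and 1 yellow CRISPR S2 sample and polyA RNA-seq of 2 control S2 libraries were used, grouped by the labels, and the other samples were not analysed here. Reads were aligned with BWA to dm3 and peaks called with MACS 1.4, per the submitters' processing notes. The peak threshold, the use of input, the annotation and the counter are not given in the sources used here. The labels describe library preparation with the same pull-down text for the RNA-seq libraries. The deposited peak lists hold positions and no score. The deposited exon values are a signal per exon, as checked on the values: in exons of 40 bp or less, 100% of 297 and 328 values were whole multiples of 1 read within 0.05. Absolute depth is unknown. Exon positions can be off by 1 bp.

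Listed exons (77314 on the arms) were merged within a gene into 67308. Shares carry 95% Wilson intervals and densities Poisson intervals, both for counting error only. Differences of signal used log2(signal + 1). No test was run, as each line has 1 sample. Python 3.11.15, numpy 2.4.6, scipy 1.17.1, pandas 2.3.3 and matplotlib 3.10.9 were used. The assignment of peaks to exons was tested on simulated narrow peaks, placed inside or over 1 edge of a long exon. Those exons overlapped no other gene, so wide peaks, short host exons and overlapping genes were not covered by that test. Of 528 host genes, 435 symbols were current in a RefSeq table, 92 were synonyms and 1 was unmatched. Symbols are those of the files.

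The members, gene lists and tests were chosen with earlier results of these data known. Named genes were dTet and yellow. They also include, per list, the 5 genes with the most peaks and the 4 peaks that touch the most exons. The 4 genes of highest exon signal per position class in both lists, the 4 longest and 4 shortest host exons, and the 5 largest excesses of peaks in each direction follow. The last are the 5 genes of both lists with no common host exon and the highest signal. Ties went to the higher signal. brm, Mi-2, shep, pum, gw, LanB1 and the genes given for ribosomal proteins, Hsp70 and markers were named from their lists after their values were seen. Alternatives were the exons as listed, midpoint or strict assignment, peaks of 500 bp or more, a pseudocount of 0.1, detection at 5, other overlaps and each control library left out. Of the genes taken by the rule for named genes, 2 are not reported here.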

Additional observations from a re-analysis of the deposited data

Results flagged for a closer look

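Peaks on the arms that touched no exon belong to none of the comparisons above and hold a signal outside the main measurement. There were 49 of them in the dTet CRISPR list and 95 in the yellow CRISPR list, and each lay within the span of a gene, so none was found outside genes. Their median width was 967 bp in dTet CRISPR and 447 bp in yellow CRISPR. The median distance to the nearest exon was 2834 bp in dTet CRISPR and 2817 bp in yellow CRISPR. In CG43444, the gene called dTet, such peaks lay in the introns in both lists.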

How the results depend on the processing

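Over 30 results and 114 alternatives, 96 values stayed within the range set for the reported one, 18 moved and 0 changed sign. That range was its interval for shares and median lengths. It was the spread of the control libraries for signal and coverage, and a fixed fold limit for peaks per gene. A change of sign was looked for in the log2 signal difference alone. Reported coverage shares lie near midway between the controls, so leaving out a control could hardly move them beyond that spread. With exons as listed, 2.58% of dTet CRISPR and 2.08% of yellow CRISPR peaks lay in single-exon genes. With the central 200 bp, 85.5% and 85.0% lay wholly within exons. Yellow peaks not met by the dTet list were terminal in 57.7%. In genes of 10000 exonic bp or more, 11.8% and 15.7% of centres lay in the outer zone. Yellow peaks of 500 bp or wider had a median host exon of 1584.5 bp. These 3 settings of central stretch, peaks not met and gene length were chosen after seeing the data. For the log2 signal difference, a pseudocount of 0.1 gave 0.58 in dTet and 0.64 in yellow, detected hosts gave 0.52 in dTet, and leaving out a control library gave 0.47 at both ends of the range in dTet and 0.53 to 0.57 in yellow. Requiring overlap by 50% of each peak gave sharing of 36.3% in dTet and 51.3% in yellow, and by 1 bp 78.1% in yellow, where peaks in a shared host exon are 51.7% and 73.2%. Detection at 5, which leaves fewer and more expressed genes, gave 15.7% of genes with a dTet peak and 10.9% with a yellow peak. The cause of the moves was not tested. No paired analysis was possible because each line has 1 hMeRIP sample and the results come from no test.

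The depth of the hMeRIP libraries is unknown, so absence from a list is no measure of level. Without strand, transcript start and end cannot be told apart.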
